A study of Mus musculus with 25 samples.

Results

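A set of 10 genes of the p53 DNA damage response was followed across 25 RNA-seq libraries of mouse liver and liver tumors: *Trp53* itself, its antagonist *Mdm2*, the p53 target genes *Cdkn1a*, *Btg2*, *Ccng1*, *Bax*, *Eda2r*, *Phlda3* and *Trp53inp1*, and the DNA repair gene *Mgmt*. The members were fixed by name, and each of the 10 symbols matched exactly 1 of the 48795 gene IDs in the files. All 10 passed the filter on low counts and were tested among 15625 genes.

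The mice were male C57BL/6J, an inbred laboratory strain. Those of the DEN groups received diethylnitrosamine (DEN), a carcinogen that alkylates DNA once it is activated in hepatocytes, by an injection of 25 mg/kg into the peritoneum at 2 weeks of age, and those of the nonDEN groups were not injected. From weaning the animals ate a western diet (WD) or a control diet (CD), and the study's text gives 36 weeks as the age at sampling, while a supplement names ages of up to 39 weeks. The 5 groups were liver without DEN on CD (nonDEN L-CD, n = 3), liver without DEN on WD (nonDEN L-WD, n = 4), liver with DEN on CD (DEN L-CD, n = 4), peritumoral liver with DEN on WD (DEN PT-WD, n = 8) and tumors with DEN on WD (DEN T-WD, n = 6). Tumors of the DEN L-CD mice were too small to be cut out, so that those livers may hold tumor tissue. No mouse carried a transgene, and the labels do not say which peritumoral and tumor pieces came from the same mouse or whether every library came from a mouse of its own, so p-values measure the spread between libraries. In these pieces of whole tissue, fewer cells of a type and less RNA per cell cannot be told apart.

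p53 is a transcription factor that is kept scarce in unstressed cells by *Mdm2*, a ubiquitin ligase which is itself a p53 target and so closes a feedback loop. DNA damage frees p53 from *Mdm2* mainly at the level of the protein, and the transcripts of its targets rise. Of the targets followed here, *Cdkn1a* and *Btg2* stop the cell cycle and *Bax* and *Eda2r* favour cell death. *Phlda3* restrains the kinase Akt, and *Trp53inp1* acts back on p53 and autophagy. *Mgmt* removes alkyl groups from guanine and belongs to the repair of the kind of lesion that DEN leaves.

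p53 binds a pair of half-sites of 10 bases, and the 250 bases before the transcription start were searched for it as a description of these genes. Windows from RefSeq (GRCm38.p6) were used for 9 of the 10 genes, all but *Trp53inp1*, with 2 start sites each for *Cdkn1a* and *Mgmt*. A full site was defined as both half-sites with at most 3 mismatches in all, the CNNG core of each kept and at most 1 base between them. The motif was scored on both strands. Of 32851 such windows over all genes, 2.28% held a full site and 7.13% an exact half-site. Full sites were found for 4 of the 9 genes. Those windows are shown here on the strand of the gene, 5′ to 3′, with the full site and any further exact half-site in capitals.

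*Cdkn1a*, chr17:29090729-29090978, plus strand: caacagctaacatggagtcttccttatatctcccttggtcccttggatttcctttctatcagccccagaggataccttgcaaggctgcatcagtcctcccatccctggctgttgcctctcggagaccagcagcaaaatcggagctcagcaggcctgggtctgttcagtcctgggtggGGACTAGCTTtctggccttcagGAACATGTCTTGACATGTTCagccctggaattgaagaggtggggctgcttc
*Ccng1*, chr11:40755287-40755536, minus strand: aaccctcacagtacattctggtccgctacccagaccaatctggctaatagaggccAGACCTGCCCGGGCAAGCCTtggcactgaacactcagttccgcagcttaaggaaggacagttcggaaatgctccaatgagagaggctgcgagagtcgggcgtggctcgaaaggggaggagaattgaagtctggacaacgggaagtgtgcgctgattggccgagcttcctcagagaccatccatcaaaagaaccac
*Bax*, chr7:45466899-45467148, minus strand: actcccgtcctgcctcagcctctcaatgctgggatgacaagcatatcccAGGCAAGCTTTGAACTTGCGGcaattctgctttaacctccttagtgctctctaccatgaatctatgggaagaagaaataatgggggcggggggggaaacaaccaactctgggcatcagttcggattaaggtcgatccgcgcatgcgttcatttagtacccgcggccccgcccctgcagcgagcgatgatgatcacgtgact
*Trp53*, chr11:69580109-69580358, plus strand: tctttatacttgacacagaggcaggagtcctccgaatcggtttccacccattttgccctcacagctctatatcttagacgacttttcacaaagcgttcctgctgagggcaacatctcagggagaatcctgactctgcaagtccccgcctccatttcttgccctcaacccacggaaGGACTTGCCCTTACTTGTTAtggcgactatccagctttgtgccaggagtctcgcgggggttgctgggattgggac

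The site of *Cdkn1a* had 1 mismatch and lay 51 to 32 bases before the start, with a separate half-site upstream of it, and the window of its other start held neither. That of *Ccng1* also had 1 mismatch and lay 195 to 176 bases before the start. That of *Bax* had 2 mismatches and a spacer of 1 base, and that of *Trp53* had 3 mismatches. *Mdm2* held a half-site without a full one. The windows of *Btg2*, *Eda2r*, *Phlda3* and *Mgmt* held neither, which says only that these letters are not in those windows. A match is a description of the sequence and no binding was measured.

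On GRCm38 the 4 genes with the largest changes lie at chr17:29090976-29100727 (*Cdkn1a*, plus strand), chr1:134075170-134079120 (*Btg2*, minus strand), chr1:135766119-135769136 (*Phlda3*, plus strand) and chrX:97333840-97377216 (*Eda2r*, minus strand). *Trp53* and *Ccng1* are on chromosome 11, *Bax* and *Mgmt* on chromosome 7, *Mdm2* on chromosome 10 and *Trp53inp1* on chromosome 4. Values are sums over all exons of a gene. *Cdkn1a* overlaps an antisense gene model over 273 exon bases, whose reads cannot be told apart from its own where strand was not used.

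The genes were all detected in every library, at levels that differed widely. On the TPM scale, which corrects for gene length, *Trp53inp1* was the most abundant with a mean of 69.6 TPM over the 25 libraries, followed by *Ccng1* (34.9), *Btg2* (33.4) and *Bax* (22.3). *Mdm2* (15.0), *Cdkn1a* (11.97) and *Trp53* (10.7) were intermediate, and *Mgmt* (6.27), *Phlda3* (4.02) and *Eda2r* (3.11) were lowest. As the highest over the lowest library, *Phlda3* and *Cdkn1a* varied most of the 10. *Cdkn1a* went from 2.19 to 35.1 TPM and *Phlda3* from 0.54 to 15.8 TPM. All values below are normalized counts, that is RSEM expected counts scaled to a common library size by TMM, and fold changes come from edgeR's quasi-likelihood test with Benjamini-Hochberg adjustment over all tested genes. "Called" means that the adjusted p was at most 0.05 and that the log2 fold change was 1 or more in either direction. The libraries held 21530083 to 38074411 expected counts. Hepatocyte genes were abundant in all of them, with sums of 30860 to 128200 TPM over 6 genes, and 5 pancreas genes summed to 0.08 to 3431 TPM.

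**Figure D1:**
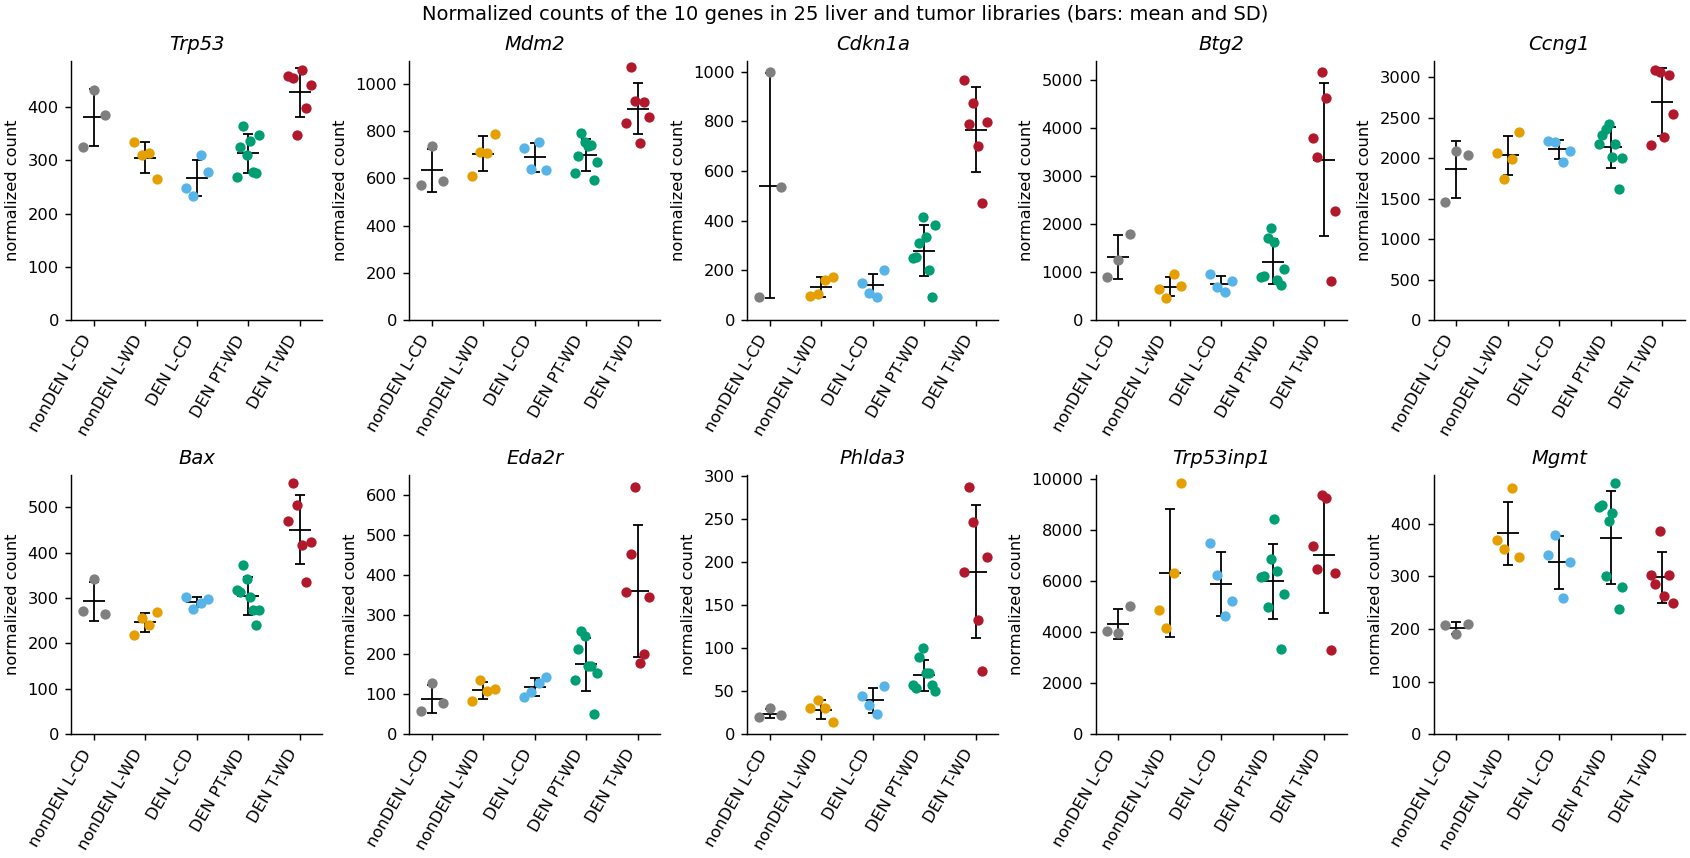
Normalized counts (y axis, from 0) of each of the 10 genes in the 25 libraries by group (x axis). Points are libraries, the black marks are the group mean and SD. Cdkn1a in the 6 tumors lies between 472 and 967, above all 8 peritumoral libraries, and nonDEN L-CD libraries 3 and 2 lie at 535 and 997.

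Which of these genes differed between a tumor and the liver around it was asked first. In tumors 8 of the 10 genes were higher than in peritumoral liver at an adjusted p of at most 0.05, and none was lower. Across all tested genes 37.7% passed that threshold, 19.5% in the upward direction. *Cdkn1a*, *Btg2*, *Phlda3* and *Eda2r*, 4 of the 10, were called, where 7.9% of all genes were called and 4.81% were called higher. The median log2 fold change of the 10 was 0.51, beside 0.01 over all tested genes. *Trp53inp1* and *Mgmt* did not pass.

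*Cdkn1a*, the cyclin-dependent kinase inhibitor that carries out much of the p53 arrest of the cell cycle, lay between 471.9 and 967.4 normalized counts in the 6 tumors, with a median of 793.4. The 8 peritumoral libraries lay between 94.52 and 415.7, with a median of 281.7. Every tumor was above every peritumoral library, as was the case for 4.29% of all tested genes and for no other of the 10. The mean rose 2.74-fold (log2 fold change 1.45 ± 0.34 SE, adjusted p = 0.00167).

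*Btg2*, an antiproliferative gene that responds to p53 and to growth factors, lay between 823.6 and 5165 in tumors (median 3602) and between 738.4 and 1930 in peritumoral liver (median 987.4). In all, 5 of the 6 tumors exceeded every peritumoral library, and tumor 5 lay inside the peritumoral range. The log2 fold change was 1.46 ± 0.30 (SE, adjusted p = 0.000568).

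*Phlda3*, which competes with Akt for membrane lipids, lay between 73.0 and 287.5 in tumors (median 197.1) and between 50.17 and 99.85 in peritumoral liver (median 64.0). Again tumor 5 was the one tumor within the peritumoral range. The log2 fold change was 1.46 ± 0.25 (SE, adjusted p = 0.000117), close to those of *Cdkn1a* and *Btg2*.

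*Eda2r*, a receptor of the tumor necrosis factor receptor family, lay between 179.2 and 621.2 in tumors (median 350.4) and between 49.79 and 257.8 in peritumoral liver (median 171.0). Tumors 4 and 5 overlapped the peritumoral libraries. Its log2 fold change of 1.04 ± 0.28 (SE, adjusted p = 0.0059) sat just above the minimum for a call, and it fell below that minimum in 6 of the 21 alternative analyses, with values from 0.81 to 1.27. Its adjusted p stayed at most 0.0271 in all 21.

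The remaining 4 that rose did so by less. *Bax*, the pore-forming protein of the mitochondrial death pathway, had a mean of 450.8 ± 76.0 (SD, n = 6) in tumors against 304.2 ± 41.6 (SD, n = 8) around them, a log2 fold change of 0.57 ± 0.10 (SE, adjusted p = 0.000121). Of the 6 tumors, 5 exceeded every peritumoral library. *Bax* shares 8.5% of its sequence, in words of 50 bases, with *Gm45808*, a gene model on the same strand that was singled out after its values were seen, and the division of reads between them by RSEM is uncertain. *Gm45808* moved the other way (log2 fold change -0.65 ± 0.18 SE, adjusted p = 0.00741), and the sum of the 2 genes was 564.1 ± 92.3 (SD, n = 6) in tumors and 482.3 ± 63.1 (SD, n = 8) around them.

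*Trp53* had 427.8 ± 46.3 (SD, n = 6) in tumors and 312.9 ± 35.9 (SD, n = 8) around them (log2 fold change 0.45 ± 0.09 SE, adjusted p = 0.000365). Part of its sequence, 3.9% of the words, also occurs in other transcripts, among them the pseudogene *Trp53-ps*. *Mdm2* had 895.7 ± 107.6 and 701.1 ± 67.6 (SD, same n), a log2 fold change of 0.35 ± 0.08 (SE, adjusted p = 0.00161). *Ccng1*, which encodes cyclin G1, had 2692 ± 422 and 2132 ± 255, a log2 fold change of 0.34 ± 0.10 (SE, adjusted p = 0.0118). For each of these 3 genes the tumor and peritumoral ranges overlapped, and the fitted rises were 1.37-fold, 1.28-fold and 1.26-fold.

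*Trp53inp1* ranged from 3308 to 9372 in tumors and from 3353 to 8439 around them. Its log2 fold change was 0.23 with an interval of 2 SE from -0.20 to 0.66 (adjusted p = 0.44), so that a rise as large as that of *Bax* is within the interval. *Mgmt* lay lower in tumors, at 298.4 ± 48.1 (SD, n = 6) against 374.1 ± 87.9 (SD, n = 8), and missed the threshold (log2 fold change -0.32 ± 0.14 SE, adjusted p = 0.0715). It passed in 5 of the 21 alternative analyses.

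**Figure D2:**
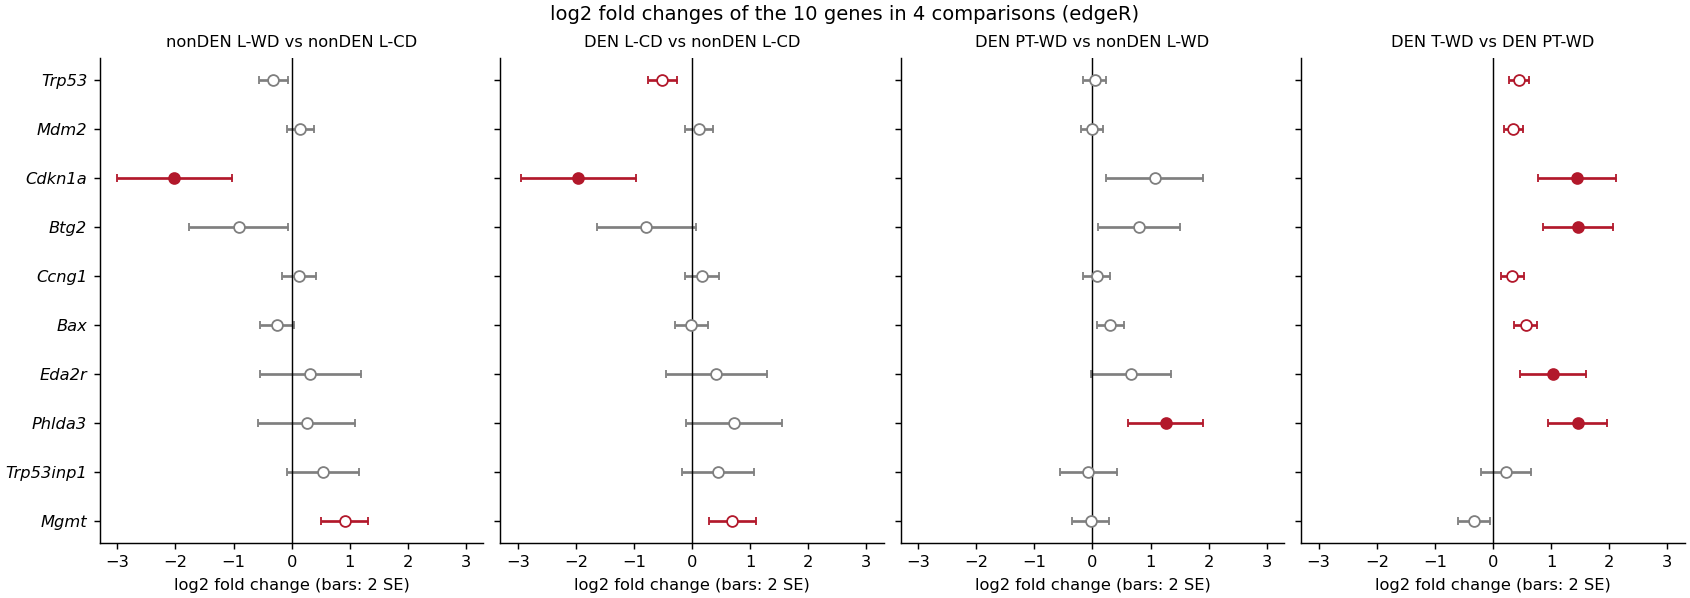
log2 fold change (x axis) of each gene (y axis) in 4 comparisons, the first group named over the second. Bars are 2 SE, red marks an adjusted p of at most 0.05 and filled points are called. In the panel of tumors over peritumoral liver 8 genes are red, while the panel of peritumoral over nonDEN western diet liver has 1, Phlda3.

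Tumor 5 differed from the other tumors in some of these markers and not in others. It held 6.95 TPM of *Gpc3*, an oncofetal marker of liver tumors that reached 112.1 to 196.6 TPM in the other 5, and 21879 TPM of *Alb* beside 82845 to 99736 TPM. The other 5 tumor markers showed no such gap. In tumor 5 *Igf2bp3* was the highest of the tumors (0.97 TPM, the others 0.21 to 0.39), *H19* (90.3 TPM) and *Spink1* (143.5 TPM) lay within the range of the others, and *Golm1* (22.6 TPM, the others 22.8 to 29.7) and *Afp* (37.9 TPM, the others 53.6 to 79.6) lay below it. It was the lowest tumor for 5 of the 10 genes, and *Mki67*, a proliferation marker, had 5.06 TPM there, the most of the 6 tumors. Without it the counts for tumors against peritumoral liver were again 4 called and 8 at adjusted p. Among the peritumoral libraries, 3 and 4 had the most *Gpc3* (77.1 and 66.4 TPM, the other 6 between 3.81 and 24.6) and were the highest for 8 of the 10 genes between them. Peritumoral library 7 was the lowest for 8 of the 10 genes and had the most *Mt1* of its group (828.3 TPM, the other 7 between 52.7 and 320.4). The part of these differences in the results was not tested beyond leaving the libraries out.

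**Figure D3:**
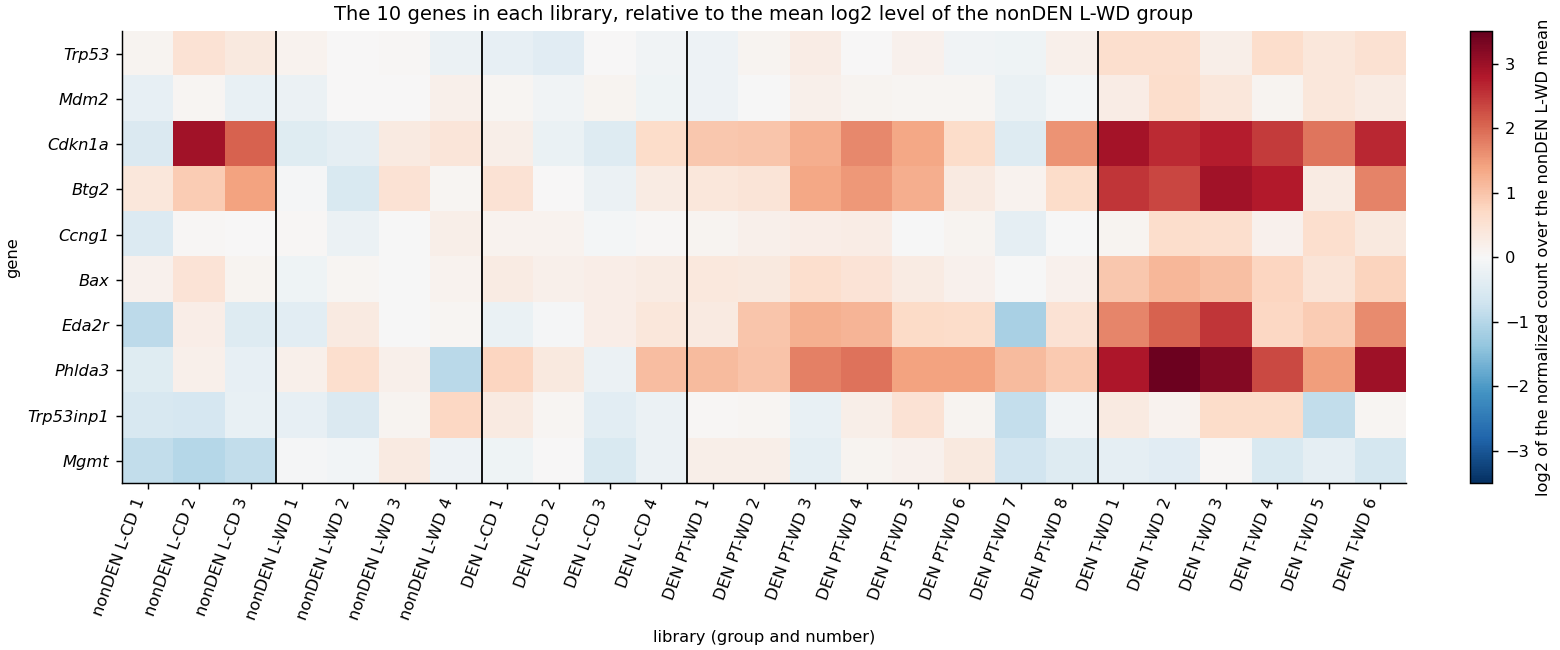
Each cell is the log2 of a gene's normalized count in one library (columns) over the mean log2 level of the 4 nonDEN L-WD libraries (color scale). The tumor columns are red for Cdkn1a and Phlda3 throughout and for Btg2, palest in tumor 5, and peritumoral library 7 is blue for Eda2r.

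Other transcripts moved with the 10 genes in tumors. All 6 tumor markers listed were called higher, and their summed level was 302.1 to 603.1 TPM in tumors and 25.2 to 250.1 TPM around them. All 8 proliferation genes were higher at adjusted p, with sums of 23.3 to 46.1 TPM and 10.04 to 29.4 TPM, so the groups overlapped. Of 8 immediate early genes, which also respond to the handling of tissue and a class to which *Btg2* is also counted, 4 were higher at adjusted p, and *Egr1* was called (log2 fold change 1.54 ± 0.34 SE, adjusted p = 0.0012). Of 5 bile duct genes 2 were called higher, with sums of 384.6 to 833.2 TPM in tumors and 72.7 to 324.5 TPM around them. All 6 stellate and fibroblast genes passed, 4 higher and 2 lower, with sums of 202.1 to 297.7 TPM in tumors and 231.4 to 448.4 TPM around them. Of 6 hepatocyte genes 2 were higher, 2 were lower and 1 was called, and their sums were 30860 to 128200 TPM in tumors and 40670 to 67750 TPM around them. Of 5 endothelial genes 1 was higher and 1 lower. None of 9 leukocyte genes passed, and their sums were 204.6 to 547.7 TPM in tumors and 167.8 to 376.8 TPM around them. The part of these genes in the rise of the p53 targets was not tested.

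The wider pathway was examined with lists of genes of known role. Of 32 other p53 targets, 11 were higher and 5 lower in tumors than around them at adjusted p, and 4 were called, all higher. Their median log2 fold change was 0.07, beside 0.51 for the 10 genes and 0.01 for all genes. The 3 with the largest change were *Psrc1*, a microtubule regulator (2.59 ± 0.52 SE, adjusted p = 0.000479), *Tnfrsf10b*, a death receptor (2.00 ± 0.30 SE, adjusted p = 2.54e-05), and *Ddit4l*, an inhibitor of mTOR signaling (1.62 ± 0.21 SE, adjusted p = 3.63e-06). All 6 tumors exceeded all 8 peritumoral libraries for *Tnfrsf10b* and *Ddit4l*, including tumor 5. The other 16 of the 32 passed in neither direction. *Fas*, a death receptor and established p53 target, was among the 5 that fell (-0.41 ± 0.12 SE, adjusted p = 0.0111).

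Genes that act on p53 formed another list. Of 15 regulators and damage kinases, 13 were tested, 2 were higher and 1 lower, and *Cdkn2a* was called. This locus encodes an inhibitor of cyclin-dependent kinases and, from another reading frame, the ARF protein that blocks *Mdm2*. *Cdkn2a* lay between 31.7 and 183.3 normalized counts in tumors and between 8.11 and 65.3 around them (log2 fold change 2.03 ± 0.43 SE, adjusted p = 0.00077), while the 7 libraries without DEN did not exceed 8.51. Gene counts do not separate its 2 products. Of 17 genes of alkylation and base repair, 5 were higher at adjusted p and none was called. Over all genes 37.7% passed and 7.9% were called, so neither list passed or was called more often than other genes.

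Cell cycle inhibitors outside the 10 genes went both ways. Of 13, 5 were higher and 2 lower at adjusted p, with 2 called higher and 1 lower. *Cdkn2b*, the neighbour of *Cdkn2a* and an inhibitor of the kinases Cdk4 and Cdk6, had the largest rise (2.40 ± 0.59 SE, adjusted p = 0.00257). *Btg3*, of the family of *Btg2*, whose counts are uncertain because 18.1% of its words of 50 bases also occur in other gene models, chiefly *Gm7334*, rose by 1.27 ± 0.38 (SE, adjusted p = 0.0107). *Gadd45g*, a stress gene of the Gadd45 family, fell by 1.61 on the log2 scale (SE 0.52, adjusted p = 0.0169).

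**Figure D4:**
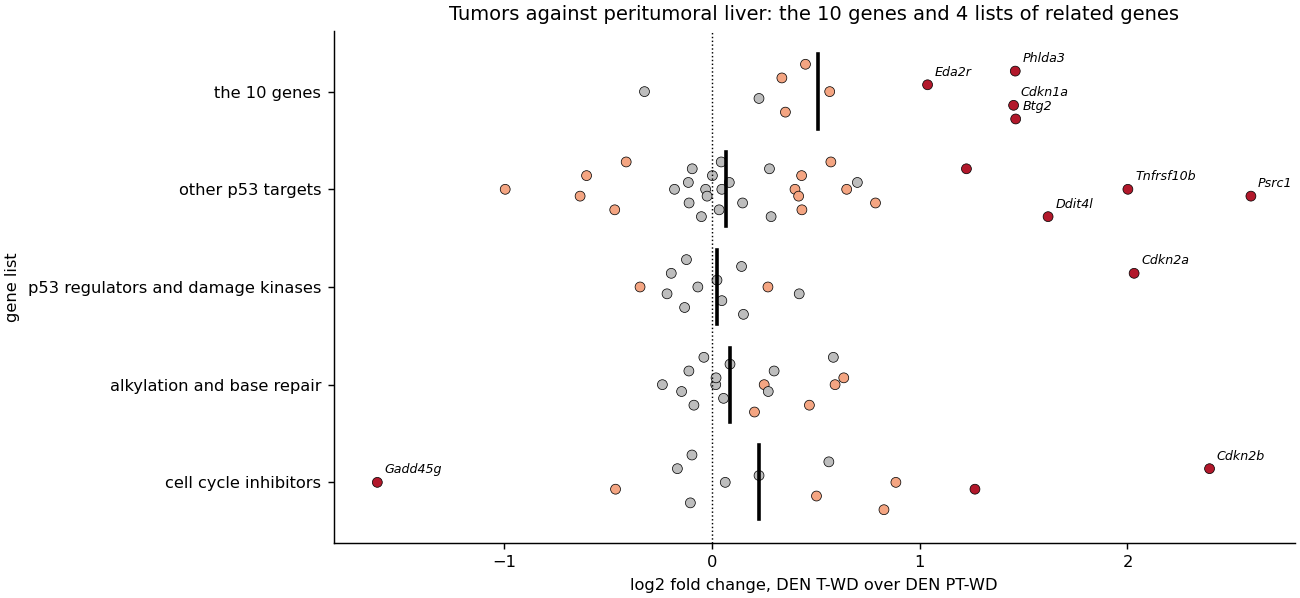
log2 fold change (x axis) of tumors over peritumoral liver for the 10 genes and for 4 lists of related genes (y axis, spread vertically for legibility). Points are genes, dark red is called, light red passed the adjusted p without the minimum fold, grey did neither, and the black bar is the list's median. The bar of the 10 genes is at 0.51 and that of the other p53 targets at 0.07.

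Tumors were next set against the liver of mice that ate the same diet without DEN. The same 8 genes were higher at adjusted p and the same 4 were called. Over all genes 49.0% passed the threshold, 25.9% upward, and 15.7% were called, 10.4% upward. For 5 of the 10, *Trp53*, *Cdkn1a*, *Bax*, *Phlda3* and *Eda2r*, all 6 tumors exceeded all 4 nonDEN L-WD livers, which held for 15.8% of all genes. This comparison shares its tumor libraries with the one before, so the pair does not count as separate evidence.

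*Phlda3* changed most. The nonDEN L-WD livers held 30.2, 39.7, 29.9 and 13.9 normalized counts, against a tumor median of 197.1, and the log2 fold change was 2.72 ± 0.35 (SE, adjusted p = 1.62e-06). *Cdkn1a* was at 95.6, 103.1, 161.8 and 173.6 in those livers (log2 fold change 2.52 ± 0.45 SE, adjusted p = 8.95e-05). *Btg2* (2.27 ± 0.39 SE) and *Eda2r* (1.70 ± 0.37 SE) followed, with adjusted p of 6.18e-05 and 0.00055. *Bax* rose by 0.87 ± 0.12, *Trp53* by 0.49 ± 0.11, *Ccng1* by 0.41 ± 0.12 and *Mdm2* by 0.35 ± 0.10 on the log2 scale (SE).

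Of the 32 other p53 targets, 13 were higher and 4 lower in tumors than in nonDEN L-WD liver, with 8 called higher and 1 lower, and a median log2 fold change of 0.22 beside 0.02 over all genes. *Psrc1* (5.76 ± 0.88 SE, adjusted p = 1.33e-05), *Tnfrsf10b* (3.81 ± 0.44 SE, adjusted p = 4.73e-07) and *Ddit4l* (2.23 ± 0.27 SE, adjusted p = 8.57e-07) changed most. Of 13 cell cycle inhibitors outside the 10 genes, 7 were higher and 2 lower at adjusted p, with 6 called higher and 1 lower. Their median log2 fold change was 0.76, beside 0.68 for the 10 genes. Marker lists moved as well. All 6 tumor markers were called higher, and all 8 proliferation genes were higher with 7 called. Stellate and fibroblast genes had 4 of 6 called higher and 1 lower, bile duct genes 2 of 5 called higher and immediate early genes 5 of 8 higher with 4 called. Leukocyte genes had 5 of 9 higher with 1 called, with sums of 204.6 to 547.7 TPM in tumors and 97.7 to 236.6 TPM in those livers. Hepatocyte genes had 4 of 6 lower with 2 called and 1 called higher, and endothelial genes 2 of 5 higher and 1 lower. The part of these genes in the rise of the 8 members was not tested.

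Peritumoral liver was compared with nonDEN L-WD liver, on the same diet, to ask how liver outside the tumors of DEN-injected mice differed from liver without DEN. *Phlda3* was the one member to pass and was called, where 12.4% of all genes passed and 2.76% were called. The 8 peritumoral libraries held 50.2 to 99.9 normalized counts and the 4 livers 13.9 to 39.7 (log2 fold change 1.26 ± 0.33 SE, adjusted p = 0.0158). *Phlda3* lost the call without nonDEN L-WD library 4 (1.04, adjusted p = 0.0768) and without peritumoral libraries 3 and 4 (1.06, adjusted p = 0.0567), the latter chosen after the data were seen.

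*Cdkn1a* was above every nonDEN L-WD liver in 7 of the 8 peritumoral libraries and did not pass (log2 fold change 1.07 ± 0.42 SE, adjusted p = 0.0907). The Wald test of DESeq2, an alternative analysis, called it on the same libraries (1.06, adjusted p = 0.0436). The exception among the peritumoral libraries was library 7 with 94.5. Without that library *Cdkn1a* and *Bax* passed (1.20, adjusted p = 0.0469, and 0.35, adjusted p = 0.0455), which brought the count to 3 of 10 at adjusted p and 2 called. *Btg2* (0.80 ± 0.36 SE, adjusted p = 0.134) and *Eda2r* (0.66 ± 0.34 SE, adjusted p = 0.198) were uncertain. *Mdm2* (interval of 2 SE from -0.19 to 0.18), *Trp53* (-0.17 to 0.24) and *Ccng1* (-0.16 to 0.30) stayed within narrow bounds.

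Among the 32 other targets, 4 were higher and none lower in this comparison, and 3 were called: *Psrc1* (3.16 ± 0.84 SE, adjusted p = 0.0179), *Tnfrsf10b* (1.81 ± 0.41 SE, adjusted p = 0.00839) and *Pmaip1*, a promoter of cell death (1.05 ± 0.21 SE, adjusted p = 0.00376). *Cdkn2a* was called as well (2.32 ± 0.64 SE, adjusted p = 0.0223). Of 13 cell cycle inhibitors outside the 10 genes, 3 were called higher and none was lower at adjusted p. The median log2 fold change of that list was 0.45, beside 0.19 for the 10 genes. Tumor markers moved in parallel here too, with 5 of 6 called higher and sums of 25.2 to 250.1 TPM against 5.72 to 41.4 TPM. Of the other marker lists, 4 of 6 stellate and fibroblast, 3 of 9 leukocyte and 2 of 5 endothelial genes were higher at adjusted p. So were 1 of 5 bile duct and 3 of 8 proliferation genes, and none of these lists had a lower gene. Of 8 immediate early genes 1 was called higher. Of 8 glucocorticoid and fasting genes 1 was called higher and 1 was lower at adjusted p. The summed bile duct genes did not overlap, at 72.7 to 324.5 TPM around tumors and 45.2 to 68.6 TPM in nonDEN L-WD liver. The part of these genes in the difference of *Phlda3* was not tested. Without peritumoral libraries 3 and 4 the count of other targets called was 1 and *Cdkn2a* was not called.

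Against DEN L-CD liver, which shares DEN and differs in diet and in being cut from around a tumor, none of the 10 passed in peritumoral liver. By the same test 10.6% of all genes passed and 1.9% were called. *Trp53*, *Cdkn1a* and *Phlda3* had an unadjusted p under 0.05, and all 10 log2 fold changes were above 0, with a median of 0.21 beside 0.02 over all genes. Marker lists moved as well, with 3 of 6 stellate and fibroblast genes called higher (sums of 231.4 to 448.4 TPM against 153.6 to 190.7 TPM), and with 3 of 5 endothelial, 2 of 9 leukocyte, 1 of 5 bile duct and 1 of 6 tumor genes higher and 1 of 6 hepatocyte genes lower at adjusted p. Their part in the values of the 10 genes was not tested. On the TPM scale limma placed 9 of 10 past the threshold, with the median gene itself shifted by 0.26 (log2) between these groups, against 0.02 after TMM. The TPM scale shifted the median gene by 0.05 to 0.30 in the 6 comparisons. Changes are given after TMM, the scale of the planned main fit, and limma on TPM was added after the data were seen. That fit changed both the test and the scale, and the part of each was not tested. DESeq2 also placed none of the 10 past the threshold here.

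The comparisons with nonDEN L-CD rest on 3 libraries of which 2 differed from the third. Libraries 2 and 3 held 2134 and 2016 TPM of *Mt1*, a metallothionein induced by glucocorticoids, metals and fasting, and library 1 held 131.7 TPM. *Fkbp5*, a glucocorticoid target, was at 55.9 and 73.9 TPM in them and at 32.3 TPM in library 1. Of the 8 listed glucocorticoid and fasting genes, 5 were higher in both libraries 2 and 3 than in library 1 and the other 3 were lower in both, among them *Tsc22d3*, another glucocorticoid target that was picked after its values were seen (27.4 and 40.4 against 45.6 TPM). *Cdkn1a* followed the same split with 997.0 and 535.0 normalized counts in libraries 2 and 3 and 91.2 in library 1. Library 1 was thus at the level of the nonDEN L-WD livers (95.6 to 173.6) and of the DEN L-CD livers (94.7 to 202.7), and the other two were near the tumors (471.9 to 967.4).

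**Figure D5:**
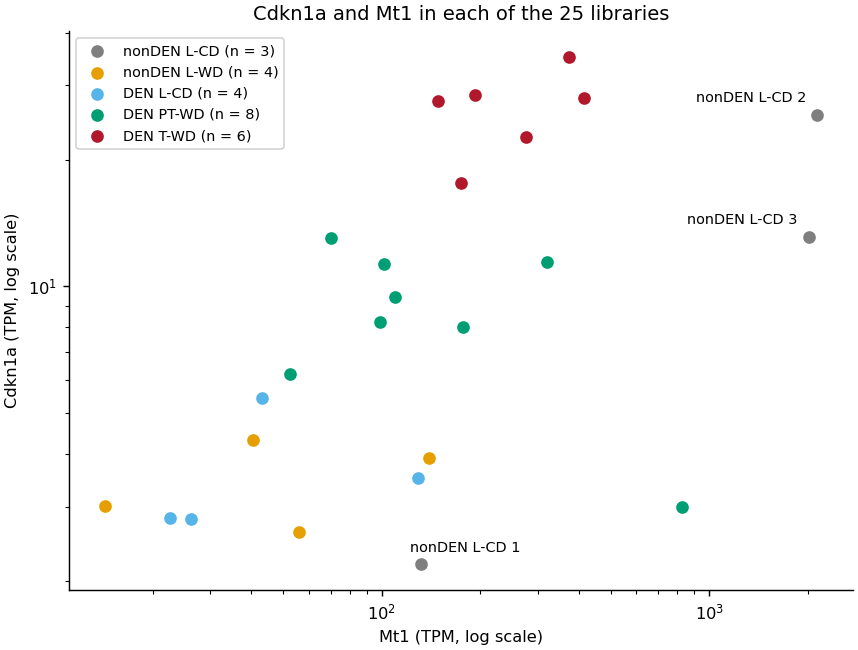
Cdkn1a against Mt1 in each of the 25 libraries, both in TPM on log axes, colored by group. The nonDEN L-CD libraries 2 and 3 lie at the far right with 2134 and 2016 TPM of Mt1, and library 1 lies with the other non-tumor livers.

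With all 3 libraries, *Cdkn1a* was lower by 2.02 on the log2 scale in nonDEN L-WD (log2 fold change -2.02 ± 0.49 SE, adjusted p = 0.00528) and by nearly the same in DEN L-CD (-1.96 ± 0.49 SE, adjusted p = 0.00705). Without libraries 2 and 3, a choice made after the data were seen, the values turned to 0.55 (adjusted p = 0.707) and 0.62 (adjusted p = 0.675), with the lone library assumed to vary like the other groups. Without library 2 alone they were -1.23 (adjusted p = 0.108) and -1.17 (adjusted p = 0.137). The part of *Mt1* and *Fkbp5* in these values was not tested further.

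*Mgmt* differed in the other direction and in all 3 libraries alike. It held 207.0, 189.7 and 209.6 normalized counts in nonDEN L-CD, 336.6 to 468.9 in nonDEN L-WD and 259.8 to 379.5 in DEN L-CD. The log2 fold changes over nonDEN L-CD were 0.92 ± 0.20 (SE, adjusted p = 0.00273) on the western diet and 0.69 ± 0.20 (SE, adjusted p = 0.018) after DEN. *Mgmt* did not reach the minimum fold for a call. The value without libraries 2 and 3 was of like size for the western diet, 0.89, though no longer past the threshold (adjusted p = 0.158), and for DEN it was 0.66 (adjusted p = 0.312). Leaving out nonDEN L-CD library 2 (0.65, adjusted p = 0.0834) or DEN L-CD library 2 (0.61, adjusted p = 0.0571) also left the value for DEN short of the threshold, with its size little changed.

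*Trp53* was lower in DEN L-CD, at 248.2, 232.5, 309.6 and 277.1, than in nonDEN L-CD, at 325.2, 431.2 and 384.9 (log2 fold change -0.51 ± 0.13 SE, adjusted p = 0.00597). Without libraries 2 and 3 it was -0.28 (adjusted p = 0.495), and without library 2 alone -0.41 (adjusted p = 0.0608). In all, 2 of 10 passed for the western diet and 3 of 10 for DEN, and *Cdkn1a* was the one called in each. Over all genes 23.2% and 21.3% passed and 5.28% and 4.7% were called, so the members passed about as often as other genes. The 2 comparisons share the 3 nonDEN L-CD libraries. Marker genes also moved. On the western diet 3 of 6 stellate and fibroblast and 1 of 9 leukocyte genes were called higher. Called lower were 1 of 5 bile duct, 1 of 8 immediate early and 4 of 8 glucocorticoid and fasting genes. After DEN 3 of 6 tumor and 1 of 9 leukocyte genes were called higher. There 1 of 8 immediate early and 3 of 8 glucocorticoid and fasting genes were called lower. Their part in the values of the 10 genes was not tested.

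Of the other lists, the 17 genes of alkylation and base repair had 4 higher and 4 lower at adjusted p on the western diet and 4 higher and 3 lower after DEN. *Ung*, which removes uracil from DNA, was called lower in both comparisons (-2.15 ± 0.24 SE, adjusted p = 3.9e-06, and -2.005 ± 0.24 SE, adjusted p = 7.95e-06). Without libraries 2 and 3 *Ung* was again called lower (-1.67, adjusted p = 0.00667, and -1.53, adjusted p = 0.0107). *Sulf2* and *Ddit4l* were the other p53 targets called higher on the western diet (2.19 ± 0.30 SE and 1.28 ± 0.35 SE, adjusted p of 2.79e-05 and 0.0111) and after DEN (1.24 ± 0.29 SE and 1.31 ± 0.35 SE, adjusted p of 0.00443 and 0.0108). These were 2 of 32 targets in each comparison, a share near that of all genes called. Without libraries 2 and 3 the call held for *Sulf2* on the western diet (1.91, adjusted p = 0.0116) and not after DEN (0.96, adjusted p = 0.193), and *Ddit4l* was called in neither (1.49, adjusted p = 0.175, and 1.52, adjusted p = 0.17). Of 13 cell cycle inhibitors, *Btg3* was called lower on the western diet (-3.40, adjusted p = 0.000397) and *Gadd45b*, a stress gene, after DEN (-1.29, adjusted p = 0.033), and neither was called without libraries 2 and 3 (-1.54, adjusted p = 0.333, and -1.32, adjusted p = 0.227).

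Whether the difference that went with DEN was of another size on each diet was tested as an interaction, the change from nonDEN L-WD to DEN PT-WD less the change from nonDEN L-CD to DEN L-CD. Of these groups only DEN PT-WD was cut from around tumors, so diet and this sampling cannot be told apart here. *Cdkn1a* (3.03 ± 0.65 SE, adjusted p = 0.00636) and *Trp53* (0.55 ± 0.16 SE, adjusted p = 0.0391) passed, and *Cdkn1a* was called. Over all genes 8.39% passed and 2.75% were called. Without nonDEN L-CD libraries 2 and 3 the interaction was 0.44 for *Cdkn1a* (adjusted p = 0.833) and 0.30 for *Trp53* (adjusted p = 0.606). *Trp53* missed the threshold in 16 of 27 alternative analyses, although apart from that one its value in them was 0.45 to 0.57, near that of the full fit.

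Ordered by their means, 9 of the 10 genes were highest in tumors, and *Mgmt* was highest in nonDEN L-WD. For each of those 9 the tumor range overlapped that of the next group. For *Ccng1*, *Bax*, *Eda2r* and *Phlda3* that group was peritumoral liver, for *Mdm2* and *Trp53inp1* it was nonDEN L-WD, and for *Trp53*, *Cdkn1a* and *Btg2* it was nonDEN L-CD. *Phlda3*, *Eda2r* and *Ccng1* followed one order from the lowest to the highest mean: first nonDEN L-CD, then nonDEN L-WD, next DEN L-CD, above it DEN PT-WD, and last DEN T-WD. Their means went from 23.9 to 28.4, 39.4, 68.6 and 188.9 for *Phlda3*, from 88.0 to 110.3, 118.0, 175.0 and 359.1 for *Eda2r*, and from 1862 to 2032, 2106, 2132 and 2692 for *Ccng1*, with overlap between all neighbours.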

How the data were processed

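RNA of 25 liver and tumor samples was sequenced from one end after poly(A) selection. The authors checked reads with FastQC and used STAR with RSEM for alignment to GRCm38. The deposited expected counts of RSEM are not normalized. Deposited TPM values are RSEM's shares of transcripts corrected for gene length. FPKM values in the files were not used. Which releases of STAR, RSEM and the gene annotation were used, and whether reads were trimmed or counted by strand, is not given in the sources used here. The adjusted p and minimum fold for a call are those of the study's methods, which applied them to DESeq2 values shrunken with apeglm. Here the fold changes are edgeR's without that shrinkage, which matters for values near the minimum such as that of *Eda2r*.

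Groups came from the sample labels. Expected counts were rounded. TMM factors and a low-count filter (filterByExpr on the groups, minimum count 10) preceded edgeR's quasi-likelihood test (version 4.0.16, R 4.3.3), in a single fit of the 5 groups with Benjamini-Hochberg adjustment over 15625 genes. SE is the absolute log2 fold change over the square root of F. Alternatives were DESeq2 1.42.0 (Wald test), its size factors in edgeR, no filter, only the groups compared, each library left out and the replicate number as a block, and, added after seeing the data, limma 3.58.1 on log2(TPM + 0.5) and the removal of 2 nonDEN L-CD or 2 peritumoral libraries. Procedures were tested on simulated data. GENCODE vM21 gave gene positions and shared sequence. Figures were drawn with Matplotlib 3.10.9.

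The 10 genes and all lists were chosen with earlier results of these data known. All 10 are named. From other lists the text names up to 3 called genes with the largest absolute log2 fold change per list and comparison, and at most 1 uncalled gene where its role is needed. Depth was 21530083 to 38074411 expected counts per library, so that genes with under 10 counts, such as *Cdkn2a* without DEN, are imprecise. No 2 libraries of a group agreed within sampling noise.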

Additional observations from a re-analysis of the deposited data

Results flagged for a closer look

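*Eda2r* in peritumoral library 7, with 49.8 normalized counts, lay far below the other 7 libraries of its group (135.7 to 257.8). Its gap to the nearest library was 0.61 of the whole range on the log2 scale, above Dixon's 95% critical value of 0.526. It was the one value so marked among 40 groups of values tested, each side of a group being examined, and chance marks about 1 in 20 groups.

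The interaction of DEN with diet, in which diet cannot be told apart from peritumoral sampling, passed the test for *Cdkn1a* (3.03 on the log2 scale) and for *Trp53* (0.55). For both genes it shrank without nonDEN L-CD libraries 2 and 3, to 0.44 and 0.30, with adjusted p of 0.833 and 0.606 in edgeR's quasi-likelihood test.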

How the results depend on the processing

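Of 1300 member values refitted under the alternatives, 1234 kept their direction and side of the threshold or passed it in neither fit, 33 lost it, 31 gained it and 2 reversed. The reversals were *Cdkn1a* without nonDEN L-CD libraries 2 and 3, at 0.55 (nonDEN L-WD) and 0.62 (DEN L-CD) over nonDEN L-CD, and there the counts of members called and at adjusted p were 0 and 0 in both comparisons and in the interaction. The counts for tumors stayed within 1.5 times under every alternative run (3 to 5 called, 8 to 9 at adjusted p).

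For nonDEN L-WD over nonDEN L-CD the counts called and at adjusted p ranged from 0 to 1 and from 1 to 3 over left-out libraries, fitting only the groups compared gave 0 called, and limma gave 0 and 1. For DEN L-CD over nonDEN L-CD they ranged from 0 to 1 and from 0 to 3, with 0 called among the groups compared alone and 0 and 1 by limma. For peritumoral over nonDEN L-WD liver they ranged from 0 to 2 and from 0 to 3, DESeq2 gave 2 and 2, limma 2 and 4, and dropping peritumoral libraries 3 and 4 gave 0 and 0. For peritumoral over DEN L-CD liver limma gave 1 and 9. For the interaction 1 to 3 passed at adjusted p over left-out libraries, DESeq2 and the groups compared alone each gave 2 called, no filter gave 1 at adjusted p, and dropping peritumoral libraries 3 and 4 gave 1 at adjusted p. The cause was not tested.

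Over all tested genes, 825 were called for nonDEN L-WD over nonDEN L-CD, 507 without nonDEN L-CD library 2, 399 by limma and 127 without libraries 2 and 3. For DEN L-CD over nonDEN L-CD these counts were 734, 430, 313 and 115. For the interaction 430 were called, 232 and 258 without nonDEN L-CD library 2 or 3, and 22 without both. For peritumoral over nonDEN L-WD liver the count went from 432 to 201 without nonDEN L-WD library 4 and 251 without peritumoral libraries 3 and 4, for peritumoral over DEN L-CD liver from 297 to 173 without DEN L-CD library 3 and 187 without those 2, and for tumors over peritumoral liver from 1235 to 695 by limma.

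The labels do not say whether equal replicate numbers mark one mouse, and the data did not show it: correlations of same-numbered deviations from the group means ran from -0.23 to 0.39. For tumor and peritumoral pieces 5 of 6 were above 0, 2 of 6 were above 0.1, and 1 of the 6 tumors correlated best with its own number, so that these values do not settle which pieces share a mouse. The replicate block moved the count at adjusted p for peritumoral over nonDEN L-WD liver to 3 and that called in the interaction to 2, and left *Ccng1* in tumors short of the threshold (0.26, adjusted p = 0.0664), while *Mgmt* passed there (-0.47, adjusted p = 0.0108). Low counts limit *Cdkn2a*, *Cdkn2b* and *Psrc1* in liver without DEN.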
